A study of Mus musculus with 6 samples.

Results

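The genes described here belong to, or act beside, the route from citrate and acetate to fatty acids in the liver. They are Acly, Acaca, Acacb, Fasn, Acss2, Me1, Slc25a1, Thrsp, Pnpla3 and Aacs. They were picked by gene symbol, with earlier results of these data known, as the probe sets whose annotation gives exactly 1 gene symbol and that symbol is one of these 10. This yielded 24 of the 45037 probe sets other than controls, and all 10 genes were among the 14071 genes tested. A further probe set, annotated to Acss2 together with another gene, was left out.

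Liver RNA came from male C57BL/6 mice, an inbred strain, that were placed at 8 weeks of age on a high-fat diet, in which fat gave 60% of the calories, or on a normal diet, each for 12 weeks. Each diet had 6 mice, and RNA was pooled by 2, read here as 3 pools per diet, so each Affymetrix mouse expression array (n = 3 high-fat and n = 3 normal diet) is 1 replicate. The p-values therefore weigh the diets against the spread between pools of animals, and having 3 arrays per diet limits the precision. The fat content of the normal diet was not given in the sources used here. Normal diet 3 resembled the high-fat arrays least (Pearson's r of 0.974 over probe sets, against 0.985 to 0.988 for normal diet 1 and 2), so results are also given without it where that matters. Values are log2 expression levels, differences are high-fat minus normal diet on that scale, given ± the standard error (SE) from limma fitted across all genes, and a gene was called at an adjusted p below 0.05.

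Newly made fatty acids are built from acetyl-CoA, which the mitochondria cannot release directly. Citrate is carried out by the transporter that Slc25a1 encodes and cleaved to acetyl-CoA by ATP citrate lyase, the product of Acly, while the acetyl-CoA synthetase of Acss2 makes acetyl-CoA from acetate. Acetyl-CoA carboxylase turns acetyl-CoA into malonyl-CoA, and fatty acid synthase joins the units using NADPH, part of which comes from the malic enzyme of Me1. In liver this programme is known to rise with feeding and insulin through the transcription factor SREBP-1c, encoded by Srebf1.

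The SREBP proteins act on promoters together with the factor NF-Y, which binds the letters CCAAT. The 250 bases before a transcript start were taken from RefSeq promoter sequences of GRCm38.p6, which held all 10 genes. Those of Fasn, Slc25a1 and Thrsp are shown because these genes stand for the synthase, the export of citrate and an accessory protein of lipogenesis, and because, as was known when they were picked, they carry motifs searched for. Each is written 5′ to 3′ on the gene's own strand, and capitals mark CCAAT or its reverse complement and the palindromic E-box CACGTG.
Fasn, chr11:120824548-120824797, minus strand: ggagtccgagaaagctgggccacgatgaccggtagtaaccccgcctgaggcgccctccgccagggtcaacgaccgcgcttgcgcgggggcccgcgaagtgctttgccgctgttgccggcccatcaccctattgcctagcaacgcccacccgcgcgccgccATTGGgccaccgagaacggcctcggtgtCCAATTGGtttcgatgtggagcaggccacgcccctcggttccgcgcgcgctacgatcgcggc
Slc25a1, chr16:17928220-17928469, minus strand: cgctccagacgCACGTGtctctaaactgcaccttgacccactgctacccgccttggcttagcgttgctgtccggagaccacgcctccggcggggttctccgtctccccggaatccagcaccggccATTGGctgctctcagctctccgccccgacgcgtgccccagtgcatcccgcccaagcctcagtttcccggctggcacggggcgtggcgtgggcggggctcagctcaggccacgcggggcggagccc
Thrsp, chr7:97417551-97417800, minus strand: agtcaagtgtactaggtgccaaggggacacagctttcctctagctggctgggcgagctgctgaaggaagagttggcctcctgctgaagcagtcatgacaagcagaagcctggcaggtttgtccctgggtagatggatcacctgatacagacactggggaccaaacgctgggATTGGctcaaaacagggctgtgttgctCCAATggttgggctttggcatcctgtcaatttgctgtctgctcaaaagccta

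Fasn had 3 matches to CCAAT on either strand, which began 90, 62 and 59 bases before the start, and those at 62 and 59 overlapped. Thrsp had 2, beginning 79 and 52 bases before its start, and Slc25a1 had 1, at 125 bases, beside a CACGTG at 239 bases. Counting any window of a gene, 7 of the 10 genes held CCAAT on either strand, against 33.8% of all 32851 promoter windows, and CACGTG was in 1 of the 10 genes against 6.02% of windows. The window of Pnpla3, whose single, dim probe set hardly differed between the diets, also held 1 CCAAT. The SRE-1 core TCACNCCAC, a binding sequence of SREBP proteins, was in windows of 0 of the 10 genes and in 1.05% of all windows. The GC box GGGCGG, read by Sp1-type factors, was in windows of 5 of the 10 genes and in 32.7% of all windows, and is not set in capitals. A match is a stretch of letters and not a measured binding site. The Fasn start used lies 619 bases inside the annotated gene, and those of Acaca and Acacb lie 65803 and 19197 bases inside it, so other starts of these genes were not searched. Me1 had a pair of windows, and its CCAAT lies in the one whose start is 8637 bases inside the gene, while the window at its outer start held 0.

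The 10 genes stood higher under the high-fat diet on average, but 3 passed the test. Fasn, Acaca and Acly rose 4.27-fold, 2.61-fold and 2.94-fold, 0 fell and 7 were not called, while 5.87% of all 14071 tested genes were called higher and 1.73% lower. The median difference of the 10 genes was 1.24, against 0.0033 over all tested genes. Calls in either direction made up 7.6% of all tested genes. The high-fat arrays lay wholly above the normal diet arrays in 9 of the 10 genes and in 21.1% of all tested genes, and 7 of the 10 were at least 2-fold higher on average, against 2.3% of all. Pnpla3 was the gene whose arrays overlapped. An unadjusted p below 0.05 with a higher level was found for 8 of the 10, against 18.1% of all.

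**Figure D1:**
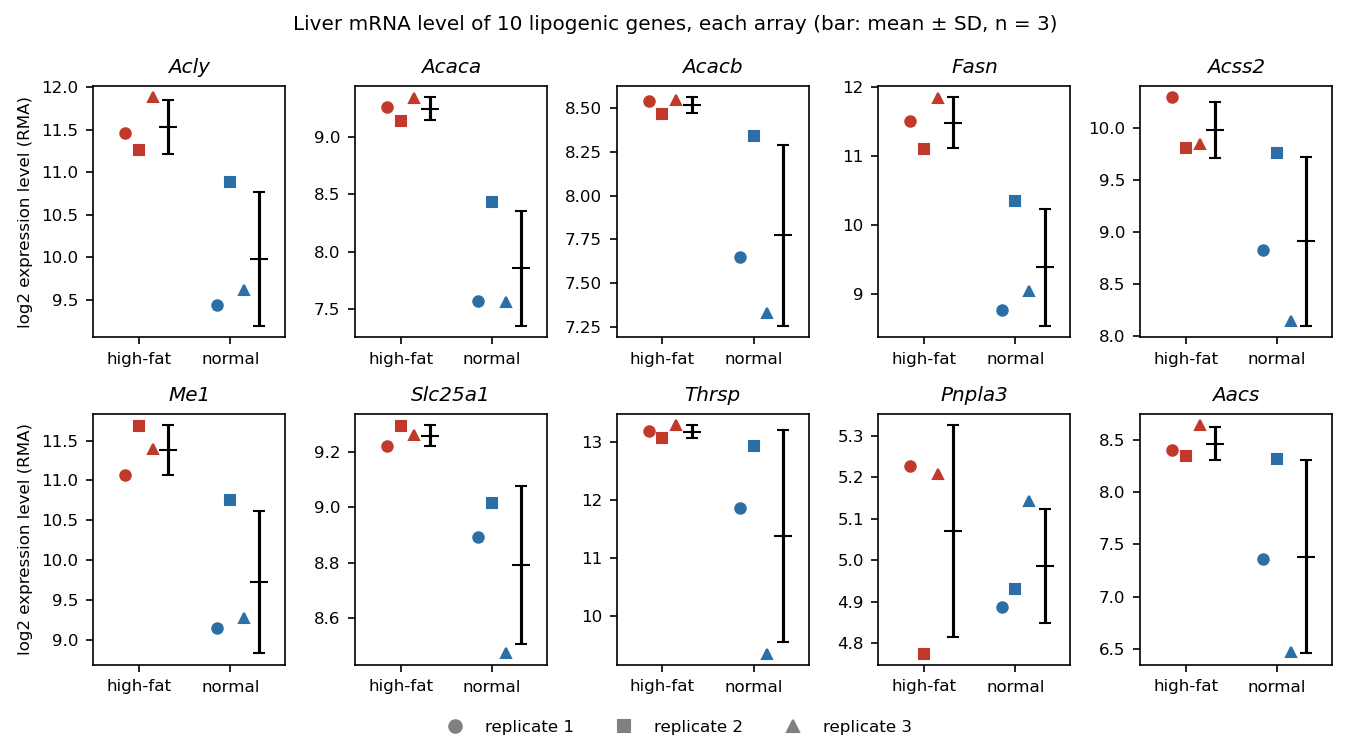
Log2 expression level of each gene in each array, high-fat diet in red on the left and normal diet in blue on the right of every panel, with the replicate number given by the symbol and the mean ± SD (n = 3) as a black bar; each panel has its own vertical scale. In 9 panels the 3 red points sit above all blue points and the square of normal diet 2 is the highest blue point, while the Pnpla3 points of the diets overlap.

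The route from citrate began with the carrier. Slc25a1 lay at 9.22, 9.30 and 9.26 in the high-fat arrays, against 8.89, 9.02 and 8.47 in the normal diet arrays. The high-fat arrays were nearly level and all above the normal diet arrays, by at least 0.20. The difference of 0.47 ± 0.15 (95% interval 0.12 to 0.81) was not called (limma adjusted p = 0.100). Dropping normal diet 3 left 0.30.

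Acly, which encodes the enzyme that cleaves the exported citrate, was measured at 11.47, 11.26 and 11.88 under the high-fat diet and at 9.44, 10.88 and 9.62 under the normal diet. Normal diet 2 lay well above normal diet 1 and 3, and 0.38 below the lowest high-fat array. The rise of 1.55 ± 0.37 passed narrowly (limma adjusted p = 0.0471). Dropping normal diet 1 ended the call (1.28, adjusted p = 0.0856), as did dropping normal diet 3 (1.37, adjusted p = 0.0662). Dropping high-fat 1, 2 or 3 ended it as well, with adjusted p = 0.137, 0.118 and 0.166. It also missed with no level filter, array weights, cyclic loess and other choices of probe set (adjusted p = 0.0504 to 0.0811).

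Acss2, whose product makes acetyl-CoA from acetate, lay at 10.30, 9.81 and 9.85 in the high-fat arrays, against 8.83, 9.77 and 8.15 in the normal diet arrays. Normal diet 2 came within 0.042 of the lowest high-fat array. The difference of 1.07 ± 0.37 (95% interval 0.20 to 1.94) was not called (limma adjusted p = 0.120), but it was called once normal diet 2 was dropped (1.50, adjusted p = 0.0231). Dropping normal diet 3 left a difference of 0.69. Aacs encodes acetoacetyl-CoA synthetase, which activates a ketone body in the cytosol for lipid synthesis. Aacs lay at 8.41, 8.35 and 8.65 under the high-fat diet and at 7.36, 8.32 and 6.46 under the normal diet. Normal diet 2 reached the high-fat range to within 0.031, while normal diet 3 was the lowest array. The Aacs difference was 1.09 ± 0.41 (95% interval 0.13 to 2.04, limma adjusted p = 0.141) and was not called. It was 1.56 without normal diet 2, where it was called (adjusted p = 0.0247), and dropping normal diet 3 left 0.63 (adjusted p = 0.172).

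The carboxylase step has a pair of isoforms. Acaca encodes the cytosolic acetyl-CoA carboxylase 1 that supplies fatty acid synthase, and Acacb encodes acetyl-CoA carboxylase 2 at the mitochondrial surface, whose malonyl-CoA restrains fatty acid import. Acaca was at 9.26, 9.13 and 9.33 in the high-fat arrays, against 7.57, 8.43 and 7.56 in the normal diet arrays. It rose by 1.39 ± 0.23 (limma adjusted p = 0.0168), with 0.70 between the lowest high-fat and the highest normal diet array. Acacb lay at 8.54, 8.46 and 8.54 under the high-fat diet and at 7.65, 8.34 and 7.33 under the normal diet. The Acacb arrays of the diets did not overlap either, but normal diet 2 was 0.12 below the lowest high-fat array. The Acacb difference of 0.74 ± 0.24 (95% interval 0.19 to 1.29) was not called (limma adjusted p = 0.0980), and it was called without normal diet 2 (1.02, adjusted p = 0.0138). Dropping normal diet 3 left an Acacb difference of 0.52 (adjusted p = 0.138). Acaca lost its call when high-fat 1, 2 or 3 was dropped, at adjusted p = 0.0695, 0.0646 and 0.0832, and its difference stayed between 1.24 and 1.67 whichever array was left out.

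Fasn encodes fatty acid synthase, the enzyme that joins the units into palmitate. Its levels were 11.50, 11.11 and 11.84 in the high-fat arrays and 8.77, 10.35 and 9.04 in the normal diet arrays. Fasn had the largest difference of the 10 genes (2.10 ± 0.40, limma adjusted p = 0.0254), and its lowest high-fat array was 0.75 above its highest normal diet array. The difference was 2.58 without normal diet 2 and 1.79 to 2.28 without any other single array. Its call was lost when high-fat 1, 2 or 3 was dropped, at adjusted p = 0.0948, 0.0695 and 0.109.

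Me1, the cytosolic malic enzyme gene that yields NADPH, lay at 11.06, 11.68 and 11.40 in the high-fat arrays, against 9.15, 10.75 and 9.28 in the normal diet arrays. The arrays did not overlap, and normal diet 2 was 0.31 below the lowest high-fat array. The 3.15-fold difference (1.66 ± 0.41, 95% interval 0.70 to 2.61) fell just short of a call (limma adjusted p = 0.0537). It was called without normal diet 2 (2.17, adjusted p = 0.00522) and with its other probe set, which has no suffix (1.40, adjusted p = 0.0485). Without normal diet 1 or 3 the Me1 difference was 1.37 and 1.43, with no call (adjusted p = 0.0963 and 0.0749). Dropping high-fat 1, 2 or 3 gave 1.81, 1.50 and 1.65, also with no call (adjusted p = 0.122, 0.174 and 0.164).

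Thrsp encodes Spot 14, a nuclear and cytosolic protein known to rise with carbohydrate feeding and thyroid hormone and to aid lipogenesis. It had the widest spread of the 10 genes, at 13.19, 13.06 and 13.29 under the high-fat diet, against 11.86, 12.93 and 9.36 under the normal diet. The normal diet arrays ranged over 3.57, while the high-fat arrays ranged over 0.22, and normal diet 2 lay 0.14 below the lowest high-fat array. The 3.48-fold difference (1.80 ± 0.78, 95% interval -0.029 to 3.62) was not called (limma adjusted p = 0.187). Dropping normal diet 3 left 0.79 and dropping normal diet 2 gave 2.57, and the difference was called in neither case (adjusted p = 0.121 and 0.0700).

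Pnpla3, a lipid droplet protein gene known in mice as a target of SREBP-1c, was the exception among the 10. Its levels were 5.23, 4.78 and 5.21 in the high-fat arrays and 4.89, 4.93 and 5.14 in the normal diet arrays. The normal diet arrays lay within the range of the high-fat arrays. The difference was 0.083 ± 0.15 (95% interval -0.27 to 0.43, limma adjusted p = 0.748), so the interval reaches neither a doubling nor a halving. Pnpla3 rests on a single probe set, which was above the level filter in all arrays but dim (mean 5.07 under the high-fat diet). Thrsp 1444166_at and Aacs 1451116_at, with means of 5.58 and 5.15 there, also stayed near 0 (-0.13 and 0.077). Brighter probe sets differed by 1.80 and 2.04 for Thrsp and by 1.09 and 1.16 for Aacs. Whether Pnpla3 mRNA itself stayed level therefore cannot be told from its probe set.

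The spread within the normal diet group recurred across the genes. Normal diet 2 was the highest normal diet array in 9 of the 10 genes, against 29.6% of all tested genes, and normal diet 3 was the lowest in 6 of 10, against 37.8%. Among the lists described below, normal diet 2 was highest in 15 of 26 citrate-pyruvate neighbours, 7 of 11 NADPH supply genes and 6 of 8 ketone body genes. The same held for 6 of 11 genes of mitochondrial fatty acid synthesis and 7 of 15 carboxylase regulators. It held for 9 of 24 elongation genes, 4 of 10 relatives of Pnpla3 and 6 of 23 regulators of transcription. The SD was larger in the normal diet group in 9 of 10 genes and in 66.7% of all tested genes. The median SD of the 10 genes was 0.21 under the high-fat diet and 0.80 under the normal diet, and over all tested genes these medians were 0.12 and 0.17. Without normal diet 2, 7 of the 10 genes were called higher (Acly, Acaca, Fasn, Acacb, Acss2, Me1 and Aacs), while 5.42% of all tested genes were. Without normal diet 1 and without normal diet 3, 2 were called, against 5.48% and 6.63% of all tested genes. Without high-fat 1, 2 or 3, 0 of the 10 were called, in fits that called 1.51%, 1.15% and 0.874% of all tested genes higher.

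**Figure D2:**
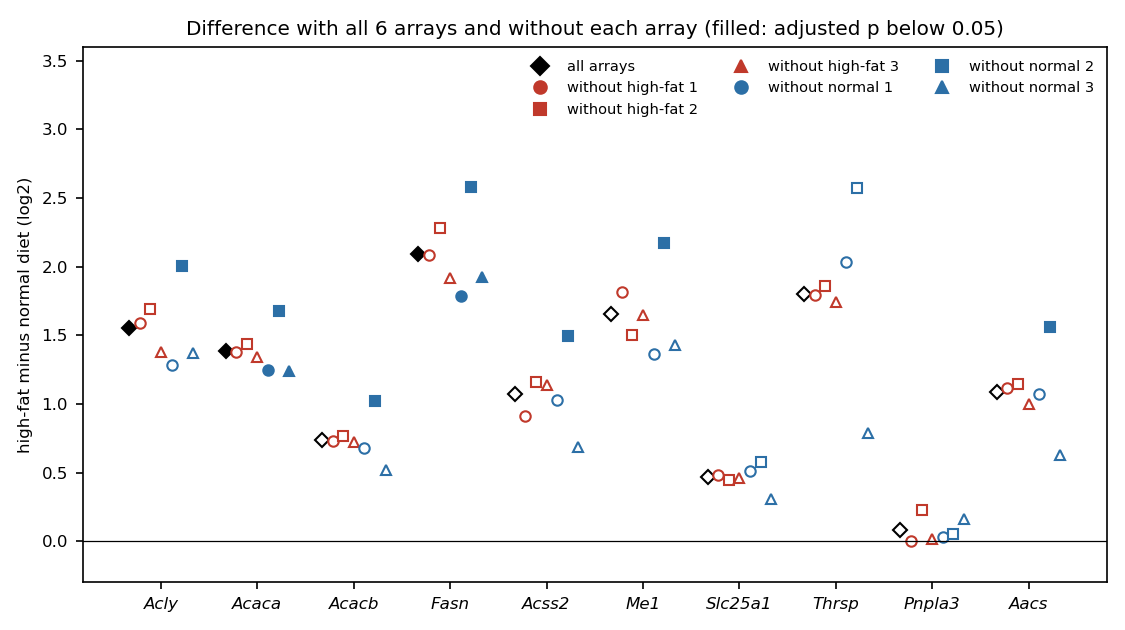
Difference between the diets (log2, vertical axis) for each gene with all 6 arrays (black diamond) and with 1 array left out (red symbols, a high-fat array; blue symbols, a normal diet array); filled symbols passed an adjusted p below 0.05 in limma. The blue square, without normal diet 2, is the highest point in all genes but Pnpla3, and the blue triangle, without normal diet 3, is far below the others in Thrsp and Aacs.

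The balance within pairs of these genes was also read, without a test that could reach 0.05. For 3 pairs, picked with their values known, the log2 ratio within each array was compared between the diets by a two-sided exact permutation test, which cannot go below p = 0.1 with 3 arrays against 3. The ratio of Acaca to Acacb was 0.72, 0.67 and 0.79 in the high-fat arrays, against -0.076, 0.093 and 0.23 in the normal diet arrays (shift 0.65, exact permutation p = 0.1, adjusted 0.15). The ratio of Fasn to Acly was 0.037, -0.15 and -0.044 under the high-fat diet and -0.67, -0.53 and -0.58 under the normal diet (shift 0.54, exact permutation p = 0.1, adjusted 0.15). Both shifts had arrays that did not overlap, which gives the smallest p that the design allows, so neither could reach 0.05. How many other gene pairs lack overlap was not counted, so no conclusion is drawn from it. With the mean of all probe sets of each gene the shifts were 0.52 for Acaca to Acacb and 1.36 for Fasn to Acly, since the dim Acly probe sets enter that mean. The ratio of Acly to Acss2 was 1.17, 1.45 and 2.03 in the high-fat arrays and 0.61, 1.12 and 1.48 in the normal diet arrays. It compares probe set levels, and the use of citrate or acetate was not measured. The Acly to Acss2 ratios of the diets overlapped (shift 0.48, exact permutation p = 0.3, adjusted 0.3). The shift was 0.24 to 0.69 when 1 array was dropped and 0.046 with the mean of all probe sets.

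The array held several probe sets for 7 of the genes, and they did not all respond. In a fit across all 45037 probe sets with no level filter, 2 of the 24 were called higher, those of Acaca (1434185_at) and Fasn (1423828_at), and 0 lower, against 2.33% higher and 0.786% lower over all probe sets. The 3 bright Acly probe sets differed by 1.55, 1.38 and 1.56 (limma adjusted p = 0.0625, 0.0692 and 0.0959). The other 3 Acly probe sets and Acaca 1427595_at lay below the level filter in all 6 arrays, so they hold no usable level. The Me1 probe sets differed by 1.66 and 1.40 (adjusted p = 0.0700 and 0.0596), the bright Thrsp probe sets by 1.80 and 2.04, the bright Aacs probe sets by 1.09 and 1.16, and the bright Acss2 probe sets by 1.07 and 0.98, and limma called none of these 8. Probe sets above the filter that stayed near 0 were Acacb 1445754_at (-0.18), Acss2 1446542_at (0.032), Thrsp 1444166_at (-0.13) and Aacs 1451116_at (0.077), each with a 95% interval that includes 0. Bright probe sets of one gene thus gave like differences, and the dimmer ones lay apart. Without normal diet 2, 12 of the 24 were called, against 2.3% of all probe sets. Without normal diet 1, 1 was, against 2.38%, and without normal diet 3, 2 were, against 2.55%. Without high-fat 1, 2 or 3, 0 were, in fits that called 0.619%, 0.473% and 0.377% of all probe sets higher.

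**Figure D3:**
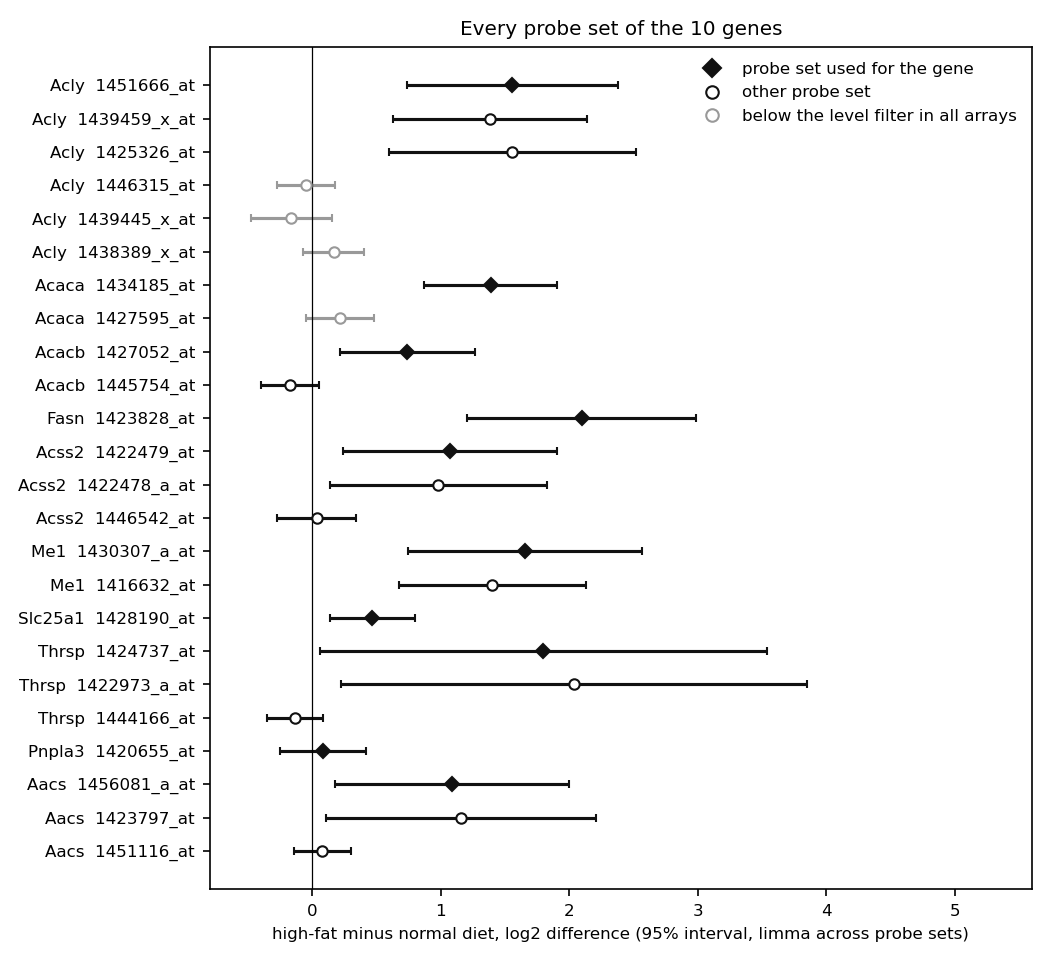
Difference between the diets (log2, horizontal axis) with its 95% interval from limma's fit across all probe sets, for each of the 24 probe sets of the 10 genes; diamonds are the probe sets that stand for a gene, open circles the others, and grey those below the level filter in all arrays. The bright probe sets of Acly, Acss2, Me1, Thrsp and Aacs have overlapping intervals to the right of 0, and the grey ones straddle 0.

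Genes around the pathway were read from 8 lists. Of 127 tested genes outside the 10, 18 rose and 3 fell, with a median difference of 0.36, against 5.87% higher, 1.73% lower and 0.0033 over all tested genes. All genes together gave 826 higher and 244 lower, and 597 and 299 after quantile normalization. Without normal diet 2, 30 of the 127 were called higher, against 5.42% of all tested genes. Without high-fat 1, 2 or 3 there were 6, 5 and 5, in fits that called 1.51%, 1.15% and 0.874% of all tested genes higher. Pgd, Scd2, Srebf1, Hmgcs1 and Nudt7, described next, were called whichever array was left out.

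Of 26 neighbours of the citrate-pyruvate cycle and of acetyl-CoA, 3 rose, 1 fell and 22 were not called (median 0.39). Pcx, which encodes pyruvate carboxylase, the enzyme that refills oxaloacetate for citrate, was at 11.03, 10.87 and 11.06 in the high-fat arrays, against 10.28, 10.67 and 10.29 in the normal diet arrays (0.57 ± 0.13, limma adjusted p = 0.0455). Dlat, a pyruvate dehydrogenase subunit gene, rose by 1.23 ± 0.28 and Slc25a11, the oxoglutarate carrier gene, by 0.65 ± 0.13. Nudt7, which encodes a peroxisomal enzyme that cleaves coenzyme A, fell by 1.31 ± 0.16 (limma adjusted p = 0.00731). The 3 rises were not called without high-fat 1, 2 or 3 or without normal diet 1, Pcx also not without normal diet 3, and the count was 7 without normal diet 2, 5 with the mean of all probe sets and 1 after quantile normalization or cyclic loess.

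Of 11 genes of NADPH supply 4 rose, 1 fell and 6 were not called (median 0.45). Pgd, of the oxidative pentose phosphate pathway, was at 9.70, 9.65 and 9.69 in the high-fat arrays and at 7.67, 8.40 and 7.75 in the normal diet arrays (1.74 ± 0.19, limma adjusted p = 0.00508). Tkt, the transketolase gene, rose by 1.05 ± 0.16 and Idh2, a mitochondrial isocitrate dehydrogenase gene, by 0.84 ± 0.17, while H6pd, which makes NADPH in the endoplasmic reticulum, fell by 0.93 ± 0.16. The other riser, Taldo1, the transaldolase gene (0.72 ± 0.15, limma adjusted p = 0.0358), is named after its value was seen. Of the list 1 gene was called higher when any high-fat array was dropped and with probe sets without a suffix, and H6pd lost its call when high-fat 1, 2 or 3 was dropped, at adjusted p = 0.0729, 0.0540 and 0.0822.

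Of 24 genes of elongation, desaturation and acyl-CoA synthesis 3 rose, 1 fell and 20 were not called (median 0.40). Scd2, a desaturase gene, rose by 2.25 ± 0.22, Acsl3, an acyl-CoA synthetase gene, by 1.40 ± 0.18 and Elovl5, an elongase gene for polyunsaturated chains, by 1.37 ± 0.27. Scd2 lay at 4.09, 3.87 and 4.27 in the normal diet arrays, not far above the level filter (3.48 to 3.59). With the mean of all its probe sets the Scd2 difference was 0.82 (limma adjusted p = 0.0207). Acsm1, a medium-chain acyl-CoA synthetase gene, fell by 0.52 ± 0.12 (limma adjusted p = 0.0433), but was called in 1 of the 6 fits that left out an array, the one without normal diet 3, and missed after median centring (adjusted p = 0.0623). Elovl5 lost its call when any high-fat array was dropped and Acsl3 when high-fat 3 was dropped (adjusted p = 0.0507). Called higher were 7 without normal diet 2, 6 after median centring and 1 without high-fat 3.

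Of 23 regulators of transcription 3 rose, 0 fell and 20 were not called (median 0.086). Srebf1, the SREBP-1 gene, was at 9.89, 10.09 and 10.40 in the high-fat arrays, against 8.17, 8.46 and 7.44 in the normal diet arrays (2.11 ± 0.26, limma adjusted p = 0.00731), and was called whichever array was left out. Normal diet 2 was again the highest normal diet array, but in Srebf1 it stood well below the lowest high-fat array. Nr0b2, a corepressor gene, rose by 1.14 ± 0.17, a call lost when high-fat 2 or 3 was dropped, and Pparg, a lipogenic nuclear receptor gene, by 1.63 ± 0.37, a call lost when any high-fat array or normal diet 1 was dropped. Mbtps2, a protease gene of SREBP release, lay 0.48 ± 0.12 higher without a call (limma adjusted p = 0.0518), and was called in 4 of 16 alternative settings. The count was 6 with array weights, 5 without normal diet 1 or 3, and 1 without high-fat 2 or 3 and with probe sets without a suffix.

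Of 15 regulators of the carboxylases 3 rose, 0 fell and 12 were not called (median 0.10). Mid1ip1, whose product is a partner of Spot 14 that promotes assembly of acetyl-CoA carboxylase into filaments, was at 8.41, 8.80 and 9.13 in the high-fat arrays, against 7.55, 8.04 and 7.07 in the normal diet arrays (1.23 ± 0.27, limma adjusted p = 0.0383). Prkag2, a regulatory subunit gene of AMP-activated protein kinase, which inactivates the carboxylases, rose by 0.74 ± 0.15, and Trib3, a pseudokinase gene, by 0.68 ± 0.12. Hlcs, which attaches the biotin that carboxylases need, lay 0.51 ± 0.13 higher without a call (limma adjusted p = 0.0538), and was called in 7 of the 16 settings, among them dropping normal diet 3 (adjusted p = 0.0370). Dropping high-fat 1 or 2 left 0 calls, and dropping high-fat 3 or normal diet 1 left 1.

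In the list of mitochondrial fatty acid synthesis, a separate pathway that serves lipoic acid, 0 of 11 genes were called (median 0.31), with Cbr4 at 0.91 ± 0.23 and Oxsm at 0.52 ± 0.15. The high-fat arrays lay wholly above the normal diet arrays in 9 of these 11 genes, against 21.1% of all tested genes. Limma gave an unadjusted p of 0.00499 for Cbr4 and 0.00893 for Oxsm, and 1 gene was called without normal diet 1, 2 or 3 and with array weights. Of 8 ketone body genes 2 rose, 0 fell and 6 were not called (median 0.52). They were Hmgcs1, the cytosolic HMG-CoA synthase gene, at 1.30 ± 0.16, and Bdh1, a ketone body dehydrogenase gene, at 0.66 ± 0.11, which lost its call when any high-fat array was dropped. Dropping normal diet 2 gave 4 calls in that list. Of 10 relatives of Pnpla3 and lipase partners 0 were called (median 0.41), with Pnpla5 at 0.52 ± 0.16 (limma adjusted p = 0.0865, unadjusted p = 0.0114), and 1 was called without normal diet 1 or 3. In 3 of these 10 genes the high-fat arrays lay wholly above the normal diet arrays.

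**Figure D4:**
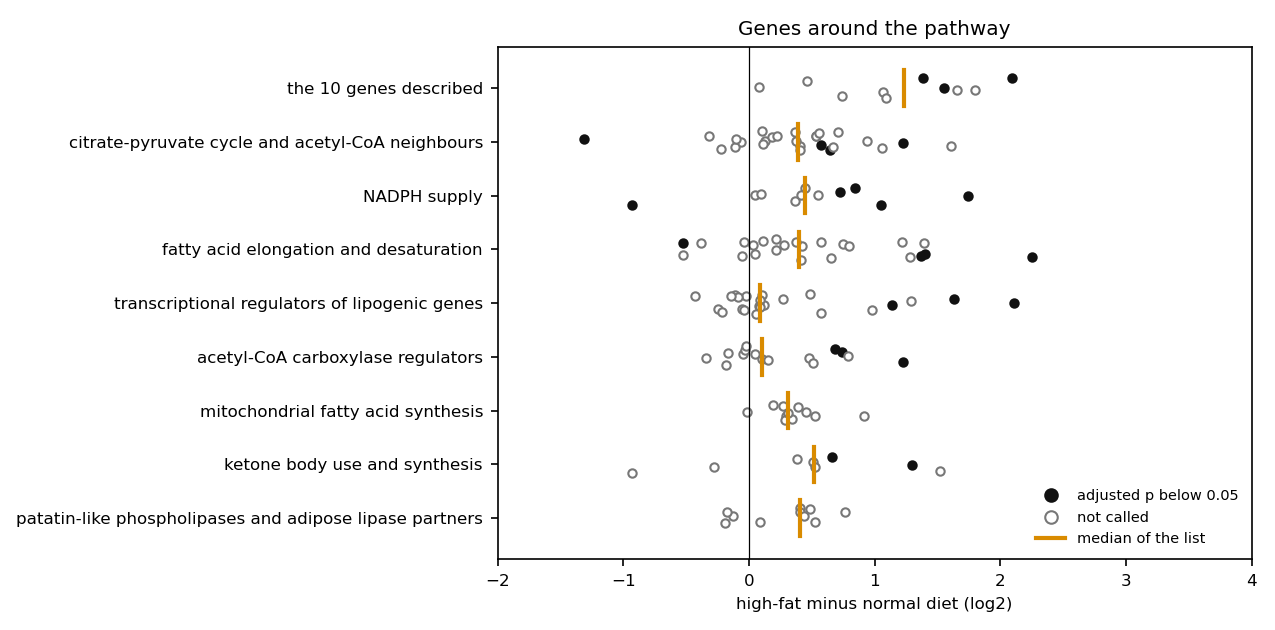
Difference between the diets (log2, horizontal axis) for the 10 genes and for the tested genes of each of 8 surrounding lists; filled points passed an adjusted p below 0.05 in limma, open points did not, orange lines are list medians, and points are spread vertically for legibility. The median of the 10 genes, 1.24, lies to the right of the medians of the other lists, 0.086 to 0.52.

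Across the 6 arrays, which share the split into diets, the levels of Acly and Acaca followed Fasn most closely among the 10 (Pearson's r = 0.995 and 0.991). Thrsp and Pnpla3 followed it least (r = 0.778 and 0.309). Outside the 10, the genes with the highest r to Fasn among all tested were Pcx (0.996), Gnptab, Mmd2, Dbnl and Gtf2h5 (0.994 each). Of these 5 limma called Pcx, Mmd2 and Dbnl higher, at 0.57, 1.05 and 0.59.

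The arrays and the tissue were checked once. Pearson's r between arrays over probe sets was 0.994 to 0.995 within the high-fat group and 0.984 to 0.992 within the normal diet group. For the Gapdh control, the 3' minus the 5' probe set level, a gauge of RNA integrity, was -0.19 to 0.0086 in the high-fat arrays and -0.032 to 0.36 in the normal diet arrays, highest in normal diet 1. Of 7 hepatocyte markers 6 lay at 11.01 or above in every array, while Hnf4a fell by 0.69 (limma adjusted p = 0.0138). For 1, Ass1, the probe set used lay at 3.66 to 3.99, close to the level filter (3.48 to 3.59). The level of Ass1 mRNA in these livers cannot be read from that probe set. The adipocyte genes Adipoq and Lep lay between 2.55 and 3.04, below the level filter in every array, and 0 of the 5 adipocyte markers above it were called. The summed adipocyte level, the log2 of the added unlogged levels, was 14.09 to 14.24 in the high-fat arrays and 13.90 to 14.11 in the normal diet arrays. Car3 and Pck1 made up nearly all of it, with means of 13.74 and 12.06 under the high-fat diet. Slc2a4, Lipe and Retn had means of 7.16, 6.10 and 4.41 there, so the sum says little about them or about the amount of adipocyte RNA. Of 8 macrophage markers 5 rose, against 5.87% of all tested genes, Clec4f (0.071) and Marco (-0.059) were not called, and Itgam lay below the filter. The summed macrophage level, in which Cd5l weighs most, was 11.87 to 11.95 in the high-fat arrays and 11.10 to 11.31 in the normal diet arrays. Of 6 endothelial and 6 stellate markers 2 each rose, with summed levels of 9.32 to 9.36 and 8.99 to 10.15 in the high-fat arrays and 8.70 to 8.92 and 8.22 to 8.59 in the normal diet arrays. Col3a1, at 7.48, 9.54 and 8.70, weighs most in the stellate sum of the high-fat arrays. Of the 4 lymphocyte, 4 cholangiocyte and 1 blood markers above the filter 0 were called. Of 2 pancreas markers Cela1 fell by 0.81, with summed levels of 7.77 to 7.95 in the high-fat arrays and 8.38 to 8.97 in the normal diet arrays. The part of other cell types in the differences of the 10 genes was not tested, and in pooled liver RNA fewer cells of a type and less RNA per cell cannot be told apart.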

How the data were processed

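Liver RNA was extracted with TRIzol and labelled with biotin, per the labels' protocols. The authors deposited 1 log2 expression level for each probe set and array, computed by RMA. The submitters' processing notes name Affymetrix Expression Console 1.0 for this. RMA corrects background, quantile-normalizes the arrays and summarises probes, and it compresses differences near background. Scanner files were not used here.

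Of 45101 probe sets 64 controls were left out. Of the rest 34945 had 1 symbol in the platform annotation, 932 several, and 9160 are unnamed here. For each of 18193 genes the probe set of highest mean level was taken, and 14071 genes were tested because that level exceeded the 40th percentile of all probe sets (3.48 to 3.59, depending on the array) on 3 or more of the 6 arrays. All 10 genes described passed on all 6. limma 3.58.1 in R 4.3.3 (lmFit, eBayes, two-sided) fitted diet alone, with Benjamini-Hochberg adjustment over all genes, or over all probe sets in a second fit. The fit was tested on simulated data in which each gene had the same variance in both diets. It was therefore not tested under the larger normal diet spread seen in most of the 10 genes. Of 207 list entries 189 matched a symbol. Summaries used Python 3.11.15.

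The members, lists and tests were chosen with earlier results of these data known. Named were all members, up to 4 genes of each list with the smallest p and the 5 genes closest to Fasn. Motif windows were the 250 bases before each RefSeq start. Alternatives covered the level filter, the variance model, array weights, scaling, the choice of probe set, blocking on replicate number and dropping each array in turn.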

Additional observations from a re-analysis of the deposited data

How the results depend on the processing

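The differences of the 10 genes kept their sign in all of 160 recomputations over 16 alternative settings. In 137 the call stayed as it was, in 17 a call was lost and in 6 one was gained. Leaving out 1 array gave 0 to 7 members called higher and 0 lower, 0 to 12 member probe sets called higher, 5 to 30 pathway genes called higher and 1 to 4 lower, and over all genes 123 to 933 higher and 46 to 312 lower. Array weights gave 373 lower genes over all, and probe sets without a suffix gave 11 higher pathway genes. The dim Acly probe set 1446315_at differed by -0.050, and by 0.019 after quantile normalization and 0.017 after cyclic loess. Acss2 1446542_at differed by 0.032, and by -0.10 to 0.12 when 1 array was left out. Mgll differed by 0.49, and by -0.19 with a probe set without a suffix. The cause was not tested.

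Replicate numbers are shared between the diets, but the labels do not say that they pair samples. Deviations of same-numbered arrays from their group means correlated at -0.012, 0.036 and 0.10 over genes, so no pairing was assumed. With the replicate block 581 genes were higher and 187 lower, and 3 members were called. Under it Acly lost its call (adjusted p = 0.0718), Me1 gained one (adjusted p = 0.0299), and 3 member probe sets were called. The block also left 0 citrate-pyruvate neighbours called higher, so Pcx, Dlat and Slc25a11 lost their calls, left 0 elongation genes called lower, so Acsm1 lost its call (adjusted p = 0.0744), and gave 1 call in the patatin-like list. Signal near background limits the dim probe sets, where RMA compresses differences.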
